A study of Homo sapiens with 6 samples.

Results

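The phase II conjugating enzymes described here are the UDP-glucuronosyltransferases (UGT), the sulfotransferases (SULT), the cytosolic and kappa glutathione S-transferases (GST) and the microsomal glutathione S-transferases (MGST). They were taken by gene symbol, as the UGT1, UGT2, UGT3, UGT8, SULT, MGST and alpha, mu, omega, pi, theta and kappa GST genes to which the array annotation gave a transcript cluster of its own, which gave 35 of the 15971 genes with a single symbol: 10 UGT, 8 SULT, 14 GST and 3 MGST genes. The zeta-class GSTZ1 is not among these prefixes and is given with the relatives. Each member had 1 cluster (a group of probe sets covering a gene), so no choice between clusters was needed. A further 8 clusters of these families list several genes each, among them the UGT1A genes, whose transcripts share exons, and are not counted as members.

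Phase II enzymes attach a polar group to drugs, steroids, bilirubin and reactive electrophiles so that these can leave the cell. Most UGT enzymes transfer glucuronic acid from UDP-glucuronate, SULT enzymes transfer sulfate from the donor PAPS, and GST enzymes couple glutathione to electrophilic compounds. The liver is a main site of these reactions, and many of the genes are controlled by the oxidant-responsive factor NRF2 and by nuclear receptors for foreign compounds.

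Total RNA came from PLC/PRF/5 cells, a line grown from a human hepatocellular carcinoma, harvested 48 h after transfection. The control group of 3 arrays received an irrelevant siRNA, and the knockdown group of 3 arrays received siRNAs against SLU7, which encodes a splicing factor of the second catalytic step. Each sample was read on 1 Affymetrix Human Exon 1.0 ST array, as a log2 value for each of 18708 clusters, with array medians from 6.61 to 6.63. The labels do not say whether the replicates were separate cultures, so each p-value reflects array-to-array spread alone, which may be technical, and the number of arrays limits the precision. Adjusted p-values are from limma, with Benjamini-Hochberg adjustment over all clusters and a threshold of 0.05.

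SLU7 read 7.89, 7.01 and 7.24 log2 units with control siRNA and 5.84, 5.58 and 6.21 with SLU7 siRNA, a difference of -1.51 ± 0.31 (SE) with a limma adjusted p of 0.0783. On the leading principal component (36.6% of the variance), control replicate 2 and SLU7 replicate 1 lay away from the remaining 4. Values within this split-off pair, and within the remaining 4 arrays, are therefore given for several members. Of 10 hepatocyte markers, 7 lay above the lowest 25% of clusters by mean signal. ALB did not, reading 2.84 to 4.52 over the 6 arrays. Among the 12 measured markers of other cells, PTPRC and CD3E of blood cells and COL1A2 and COL3A1 of fibroblasts lay in that lowest class. The other 8 did not, LYZ reading 8.63 to 10.32 and PDGFRB 8.09 to 8.48. Clusters of that class (a mean below 4.92 log2 units) are called dim here, since their folds are uncertain.

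None of the 35 conjugating enzymes passed the limma threshold, which 0.433% of all clusters did (0.299% lower and 0.134% higher). The smallest adjusted p among them was 0.18, for GSTO2, and GSTO2 was also the 1 member with an unadjusted p under 0.05 (13.1% of all clusters). Differences ran from -1.18 to 0.96 log2 units. Of the 35, 25 lay below 0 and 10 above, with a median of -0.28, beside a median of 0.00 over all clusters and 9266 below 0 of 18708. The median was -0.06 without control replicate 2, -0.10 within the split-off pair and -0.14 within the remaining 4 arrays. The 10 hepatocyte markers were all below 0 with a median of -0.55, their mean level being 8.57 to 8.66 in the control arrays and 7.87 to 8.25 in the SLU7 arrays. The mean level of the blood markers was 5.49 to 5.73 in the control and 5.38 to 5.66 in the SLU7 arrays, of the endothelial markers 6.24 to 6.33 and 5.79 to 6.33, and of the fibroblast markers 5.00 to 5.27 and 5.05 to 5.58. The part of these marker levels in the members' values was not tested. The 95% interval of the difference lay within 2-fold either way for 11 of the 35 (44.9% of all clusters), and for the rest a 2-fold change in at least 1 direction lay inside the interval.

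**Figure D1:**
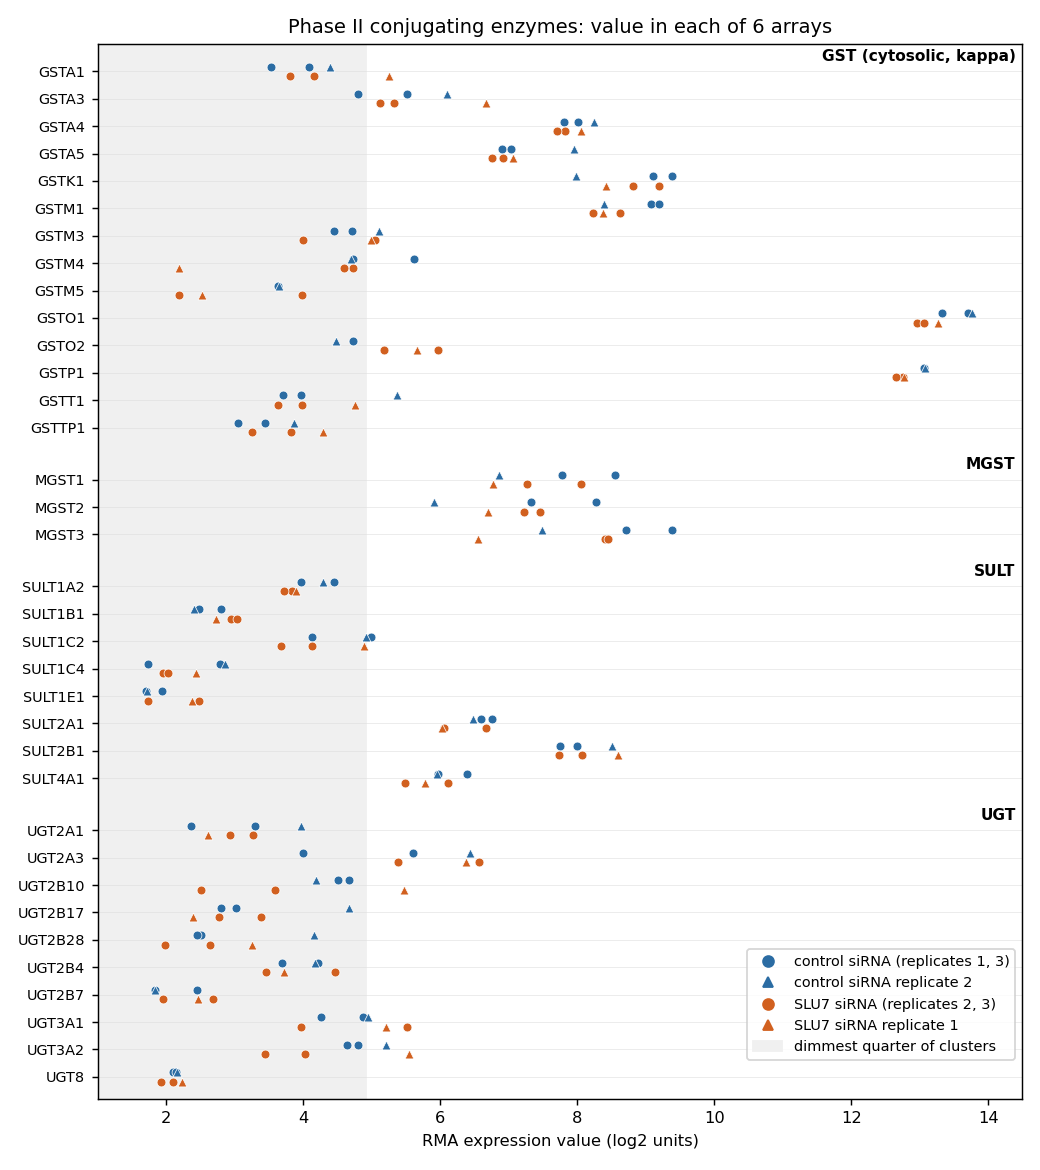
Value of each of the 35 conjugating enzymes (rows, by family) in the 6 arrays, in log2 units on the horizontal axis. Blue stands for control siRNA and orange for SLU7 siRNA, triangles mark control replicate 2 and SLU7 replicate 1, and grey shading marks the range below 4.92. The 2 colours separate in GSTO1, GSTO2, GSTP1 and SULT1A2 alone, and 9 of the 10 UGT genes lie in the shaded range by their mean.

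The arrays of the groups did not overlap for 4 of the 35 members: GSTO1, GSTP1 and SULT1A2 were lower and GSTO2 higher in every SLU7 array. Over all clusters 18.9% had groups without overlap (9.21% lower and 9.64% higher), so 4 of 35 is no larger a share than the background. In bulk RNA, less transcript per cell and fewer cells that make it cannot be told apart.

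GSTO1, an omega-class enzyme that acts as a thioltransferase and dehydroascorbate reductase, read 13.70, 13.76 and 13.33 log2 units with control siRNA and 13.26, 12.96 and 13.06 with SLU7 siRNA. Every SLU7 array lay below every control array, the nearest values being 13.33 and 13.26. The difference was -0.50 ± 0.25 (SE) log2 units, or 1.42-fold lower, with a limma adjusted p of 0.462. The split-off pair and the remaining 4 arrays each gave -0.50.

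GSTP1, the pi-class enzyme, which normal human liver carries mainly in its bile ducts, read 13.06, 13.07 and 13.06 with control siRNA and 12.77, 12.76 and 12.65 with SLU7 siRNA. The 3 control arrays were nearly level and the 3 SLU7 arrays lay together below them. The difference of -0.34 ± 0.23 (SE), 1.26-fold, had a limma adjusted p of 0.622. Limma draws the spread of each cluster toward that of all clusters, so the small SD of GSTP1 (0.01 and 0.07) did not set its SE. For GSTO1, GSTO2, GSTP1 and SULT1A2 the two-sided exact permutation p was 0.1 each, the smallest that 3 arrays against 3 allow.

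GSTO2 is the other omega-class gene and lies beside GSTO1 on chromosome 10, on the same strand. It read 4.72, 4.48 and 4.72 with control siRNA and 5.66, 5.17 and 5.97 with SLU7 siRNA. The SLU7 arrays all lay above the control arrays, and the control arrays were dim. The difference was 0.96 ± 0.28 (SE) log2 units, or 1.95-fold higher (95% interval 1.25 to 3.05), with a limma adjusted p of 0.18. The split-off pair gave 1.18 and the remaining 4 arrays 0.85, and the difference ran from 0.78 to 1.18 without any 1 array. The 2 omega genes thus had differences of opposite sign, neither past the threshold, and were set side by side after their values were seen.

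The 250 bases before the gene start are shown for these 3 genes, since 2 of them were lower and 1 higher in every SLU7 array and since NRF2 acts through the antioxidant response element. They are RefSeq sequence of build GRCh38.p14, all on the plus strand, with matches to the element's core TGACNNNGC, searched on both strands, in capitals. GSTO1 lies at chr10:104254642-104254891, GSTO2 (the first of its 2 starts in the table) at chr10:104268934-104269183 and GSTP1 at chr11:67583562-67583811.
GSTO1: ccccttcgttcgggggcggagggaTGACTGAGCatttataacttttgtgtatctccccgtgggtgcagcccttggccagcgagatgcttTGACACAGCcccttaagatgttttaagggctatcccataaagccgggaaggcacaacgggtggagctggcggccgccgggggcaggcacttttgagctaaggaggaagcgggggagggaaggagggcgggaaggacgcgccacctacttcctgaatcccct
GSTO2: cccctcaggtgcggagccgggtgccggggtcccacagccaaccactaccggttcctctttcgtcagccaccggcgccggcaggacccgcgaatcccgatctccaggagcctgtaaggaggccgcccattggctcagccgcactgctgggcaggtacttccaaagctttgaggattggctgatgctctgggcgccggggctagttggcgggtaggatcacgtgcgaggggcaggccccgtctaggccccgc
GSTP1: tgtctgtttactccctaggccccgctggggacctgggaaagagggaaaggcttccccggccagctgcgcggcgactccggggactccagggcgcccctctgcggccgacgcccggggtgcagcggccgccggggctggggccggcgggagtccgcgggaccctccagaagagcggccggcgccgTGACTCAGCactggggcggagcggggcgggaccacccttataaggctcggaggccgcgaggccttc
GSTO1 held 2 matches, beginning 226 and 161 bases before its start, and GSTP1 held 1, beginning 66 bases before. The GSTP1 match TGACTCAGC contains TGACTCA, the letters of the AP-1 motif. Neither listed GSTO2 start had a match in its window. The 3 genes were chosen by their differences, so their matches cannot be read against direction. SULT1A2, also lower in every SLU7 array, is not in the promoter table.

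Of the 35 members, 27 were found in the promoter table, and 7 of these (25.9%) held the core in that window: GSTA4, GSTM1, GSTM5, GSTO1, GSTP1, SULT1C2 and UGT2B10. Over all 27305 genes of the table the share was 13.2%. The 7 members with a match had differences from -0.74 to -0.16 log2 units, all below 0, with a median of -0.48. The 20 without a match had a median of -0.03, with 11 below 0 and 9 above. The 8 that are not in the table had a median of -0.27, with 7 of 8 below 0. Of the 7 with a match, GSTM5, SULT1C2 and UGT2B10 were dim. UGT2B10 was 0.08 without SLU7 replicate 3 and 1.29 in the split-off pair. The matches of GSTM1 and GSTM5 lie in closely similar sequence, so they are not separate instances. GSTM1, whose probes may cross-react with those of GSTM5, was -0.03 in the split-off pair. Differences were not computed over all genes that hold the core, so the values of the 7 have no background beside them. None of the 7 passed the test, so this describes the values and compares no regulation. Whether the core has a part in these differences was not tested.

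Among the mu-class GST genes, which detoxify electrophiles and are close in sequence so that their probes may cross-react, all 4 differences were below 0. GSTM1 read 9.07, 8.39 and 9.20 with control siRNA and 8.37, 8.23 and 8.62 with SLU7 siRNA, and the groups overlapped (-0.48 ± 0.29, SE, limma adjusted p = 0.57). The split-off pair gave -0.03 and the remaining 4 arrays -0.71. GSTM4, dim by its mean and in 5 of the 6 arrays, had the most negative value of all members, -1.18 ± 0.65 (SE). It rested on SLU7 replicate 1, which read 2.18 against 4.73 and 4.59 in the other SLU7 arrays and 5.61, 4.69 and 4.73 in the controls. Without that array the GSTM4 difference was -0.35. GSTM5 was dim throughout (3.63, 3.65 and 3.63 against 2.52, 3.98 and 2.18), and GSTM3, dim by its mean, differed by -0.08.

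The alpha-class genes differed by -0.38 to 0.40 log2 units, none with separate groups. GSTA4, which conjugates the lipid peroxidation product hydroxynonenal, read 8.01, 8.25 and 7.80 with control siRNA and 8.05, 7.82 and 7.71 with SLU7 siRNA. Its 95% interval, -0.74 to 0.41, leaves out a 2-fold change in either direction. GSTA1, a major hepatic enzyme in normal liver, was dim in 5 of the 6 arrays. GSTK1, the mitochondrial and peroxisomal kappa enzyme, differed by -0.01 ± 0.40 (SE), with control replicate 2 (7.98) and SLU7 replicate 1 (8.42) below the other 4 arrays (8.82 to 9.38). The theta-class GSTT1 (-0.23) and GSTTP1 (0.33), which the RefSeq table lists as a synonym of GSTT4, were dim by their means.

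The 3 MGST genes encode membrane enzymes related to the leukotriene and prostaglandin synthases, and they varied mainly with the split-off pair. MGST3 read 9.38, 7.49 and 8.71 with control siRNA and 6.55, 8.41 and 8.45 with SLU7 siRNA. MGST1, a peroxide-reducing enzyme of the endoplasmic reticulum, read 8.55, 6.86 and 7.77 against 6.77, 8.05 and 7.27. MGST2 read 8.27, 5.91 and 7.33 against 6.70, 7.22 and 7.46. In each of the 3, control replicate 2 and SLU7 replicate 1 were the lowest arrays, by 1.72, 1.09 and 1.27 log2 units on average for MGST3, MGST1 and MGST2 against the other 4. The siRNA differences of -0.72 ± 0.62, -0.37 ± 0.48 and -0.04 ± 0.55 (SE) were smaller than that. The remaining 4 arrays gave -0.62, -0.50 and -0.46, and the split-off pair -0.93, -0.10 and 0.79.

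Over all members, both of those arrays lay outside the other 4 for 14 of the 35 genes, and for 33.6% of all clusters. They were below the others for 4 (the MGST genes and GSTK1, against 12.2% of all clusters). They were above for 10 (21.5% of all clusters), which included GSTA1, GSTA3, GSTA4, GSTA5, GSTT1 and SULT2B1. With the 2 arrays entered as a block, chosen after seeing the data, none of the 35 passed limma, where 4.19% of all clusters did.

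**Figure D2:**
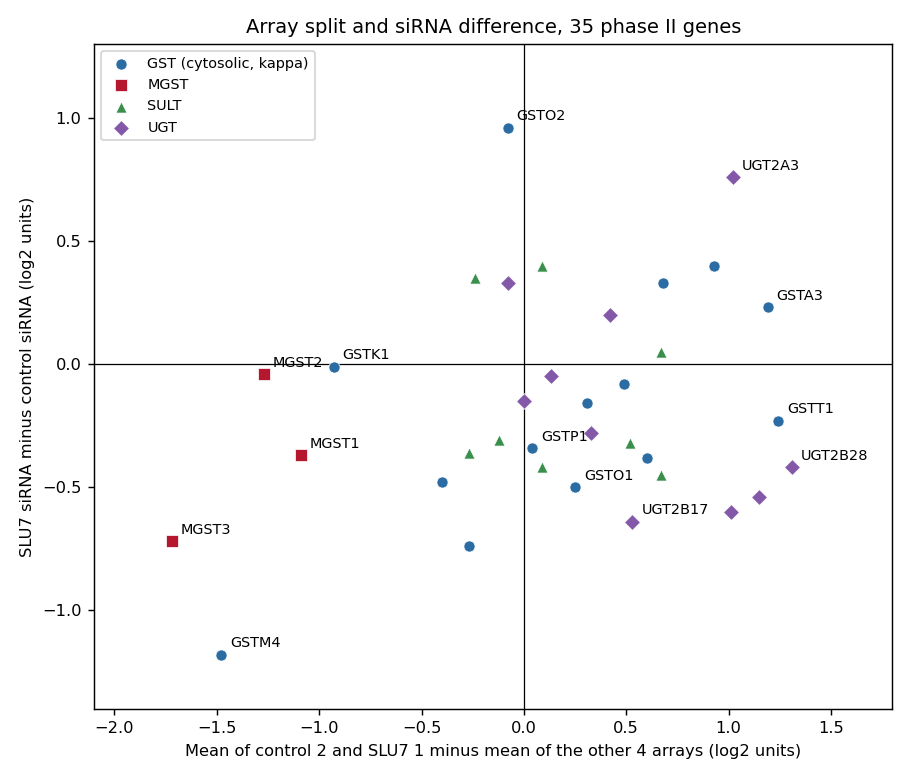
For each of the 35 genes, the mean of control replicate 2 and SLU7 replicate 1 minus the mean of the other 4 arrays (horizontal, log2 units) against the SLU7 siRNA minus control siRNA difference (vertical, log2 units). Symbols mark the families. The 3 MGST genes sit at -1.72 to -1.09 on the horizontal axis, while GSTO1, GSTO2 and GSTP1 lie between -0.08 and 0.25.

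Of the 8 SULT genes, 5 were dim and 5 had differences below 0, with a median of -0.31 and a range of -0.45 to 0.40. SULT2A1, which sulfates dehydroepiandrosterone and bile acids, read 6.75, 6.47 and 6.60 with control siRNA and 6.03, 6.66 and 6.06 with SLU7 siRNA. SLU7 replicate 2 lay among the controls, and the difference of -0.36 ± 0.27 (SE) had a limma adjusted p of 0.677. SULT2B1, which sulfates cholesterol and other hydroxysteroids, differed by 0.05 ± 0.32 (SE). SULT4A1, mainly known from brain, differed by -0.31 ± 0.28.

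SULT1A2, a phenol sulfotransferase with near-identical paralogs, was lower in all SLU7 arrays (3.89, 3.84 and 3.71 against 3.97, 4.28 and 4.44) but dim in every array. SULT1C2 (-0.45) and SULT1E1, the estrogen sulfotransferase (0.40), were dim by their means with overlapping groups.

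Of the 10 UGT genes 9 were dim, among them UGT2B4, UGT2B7, UGT2B10 and UGT2B17, which conjugate bile acids, opioids and steroids in liver. Their differences ran from -0.64 to 0.76 with a median of -0.21, 7 below 0 and 3 above, and no gene had separate groups. UGT2A3, the 1 UGT gene above the dim range, read 4.0, 6.44 and 5.60 with control siRNA and 6.37, 6.57 and 5.38 with SLU7 siRNA. The groups overlapped widely, and its difference of 0.76 ± 0.60 (SE) became 1.17 in the remaining 4 arrays and -0.08 in the split-off pair. Without control replicate 1 it was 0.08, and without control replicate 2 it was 1.31. UGT2B10 read 4.66, 4.18 and 4.51 against 5.47, 3.59 and 2.50, so the SLU7 arrays lay on both sides of the controls. Its difference of -0.60 ± 0.64 (SE) was 1.29 in the split-off pair and -1.54 in the remaining 4 arrays. UGT2B17 (-0.64), UGT3A2 (-0.54), which uses other sugar donors, and UGT3A1 (0.20) also overlapped. UGT2B17 was -2.27 in the split-off pair and 0.17 in the remaining 4 arrays, and -0.06 without control replicate 2. UGT3A2 was 0.34 in the split-off pair and -0.99 in the remaining 4 arrays, -0.10 without SLU7 replicate 2 and -1.15 without SLU7 replicate 1. Many UGT2B genes are near-identical, and their probes may cross-react.

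**Figure D3:**
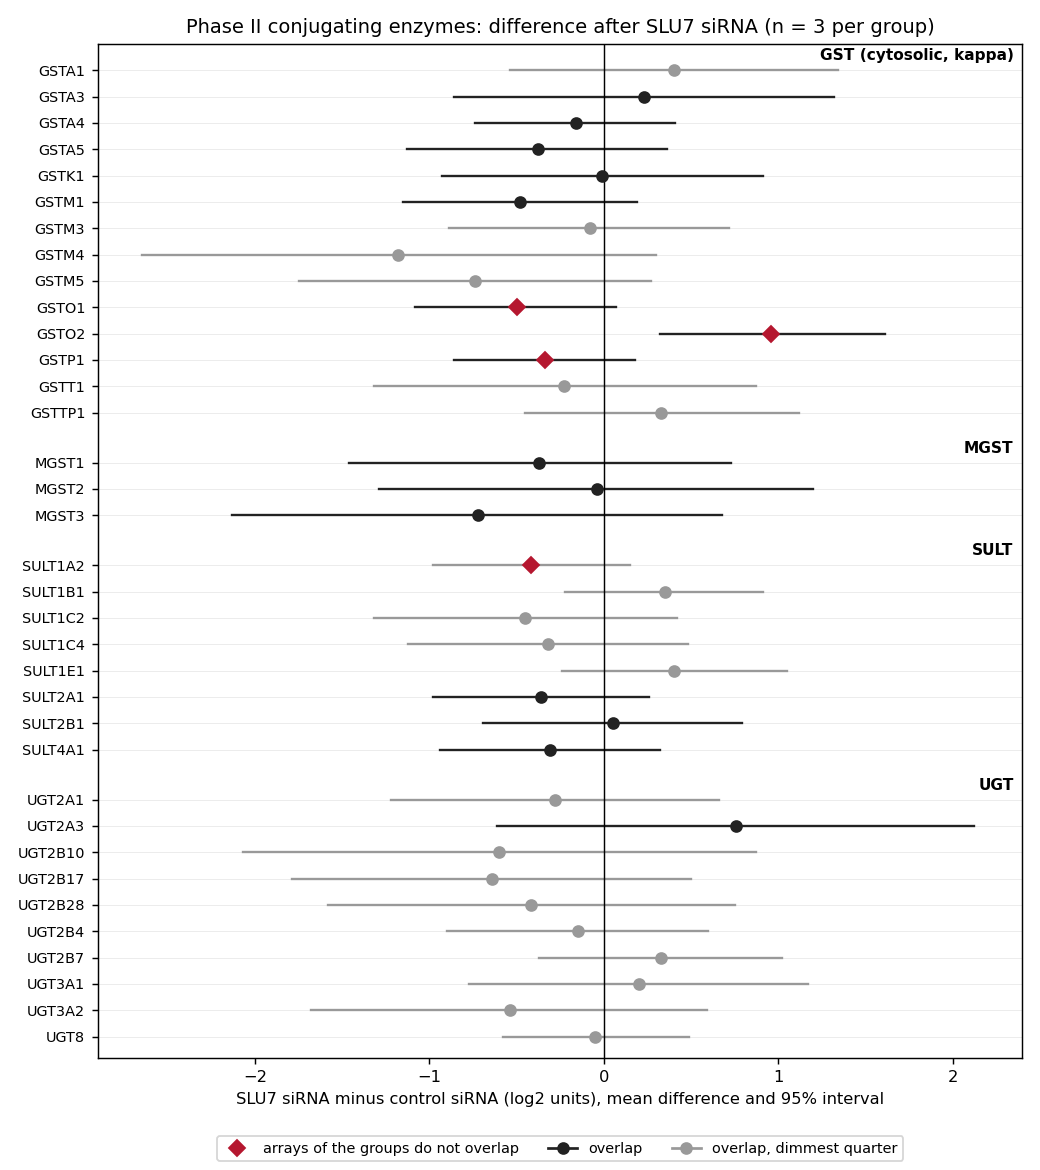
Mean difference SLU7 siRNA minus control siRNA (log2 units, horizontal) with its 95% interval from limma for each of the 35 genes (rows), n = 3 per group. Red diamonds mark the 4 genes whose groups do not overlap, and grey marks dim clusters. The interval of GSTO2, 0.32 to 1.61, is the 1 of 35 that leaves out 0.

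The genes around the conjugating enzymes were read from 8 lists (87 of 104 listed genes measured). In these, 3 genes passed the limma threshold, which 0.433% of all clusters did. Genes with groups that did not overlap were 2 of 4 for UDP-glucuronate, 1 of 5 for PAPS and 2 of 9 for glutathione. They were 4 of 17 for regulators, 7 of 16 for other NRF2 targets and 5 of 9 for transport. Removal of conjugates had 2 of 12 and other conjugation 5 of 15, against 18.9% of all clusters. In the supply of UDP-glucuronate none of 4 passed. UGDH, which oxidises UDP-glucose to UDP-glucuronate, read 9.67, 9.50 and 9.45 with control siRNA and 10.40, 10.28 and 10.35 with SLU7 siRNA. The groups lay well apart, at 0.80 ± 0.23 (SE) log2 units or 1.75-fold, with a limma adjusted p of 0.171. SLC35D2, a nucleotide sugar transporter, differed by -0.33. In the supply of PAPS none of 5 passed, and SLC35B3, a PAPS transporter of the Golgi, differed by 0.56 ± 0.28 (SE).

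In the supply of glutathione 1 of 9 passed. SLC7A11, the cystine transporter that feeds glutathione synthesis, rose 3.68-fold (6.97, 6.43 and 6.34 against 8.40, 8.36 and 8.62 log2 units, limma adjusted p = 0.0439). GSR, which reduces glutathione disulfide, read 9.77, 9.54 and 9.33 against 8.39, 8.89 and 8.75, a difference of -0.87 ± 0.26 (SE) that did not pass (limma adjusted p = 0.192). The list's median was -0.03.

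None of 17 regulators passed, and their median was -0.16. NFE2L2, which encodes NRF2, differed by 0.18 ± 0.24 (SE) log2 units. KEAP1, which marks NRF2 for degradation, read 8.43, 9.32 and 9.32 with control siRNA and 10.31, 9.86 and 9.72 with SLU7 siRNA, all SLU7 arrays above the controls (0.94 ± 0.33, SE, limma adjusted p = 0.26). NR1I2, the pregnane X receptor, differed by -1.09 and was dim in all arrays. NR1I3, the constitutive androstane receptor, differed by -0.16, AHR by -0.52 and ARNT, the partner of AHR, by -0.33.

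Other NRF2 target genes had a median of 0.01, with none of 16 past the threshold and differences on both sides. TXNRD1, thioredoxin reductase, read 9.98, 10.00 and 10.18 against 10.88, 11.19 and 10.82 (0.91 ± 0.24, SE). OSGIN1, an oxidative stress inducible gene, read 7.30, 6.81 and 7.36 against 8.08, 8.09 and 8.06 (0.92 ± 0.26, SE). AKR1C1, an aldo-keto reductase with near-identical paralogs, read 12.47, 12.37 and 12.58 against 11.49, 11.42 and 11.59 (-0.97 ± 0.23, SE). The groups of each of these 3 genes lay apart, with limma adjusted p of 0.145, 0.157 and 0.112. In all, 7 of the 16 had groups without overlap, 5 lower and 2 higher, against 18.9% of all clusters.

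Among genes that move conjugates or their parent compounds across membranes, 8 of 9 were below 0, with a median of -0.30, and 1 passed. Over all clusters 9266 of 18708 lay below 0. Of the 9 genes, 5 had groups without overlap, all lower, against 9.21% of all clusters. ABCC2, the canalicular pump for glucuronide and glutathione conjugates, fell 5.41-fold (8.43, 7.81 and 9.07 against 5.63, 6.42 and 5.97 log2 units, limma adjusted p = 0.0483). ABCC1, a basolateral pump for glutathione conjugates, read 7.85, 7.51 and 7.40 against 6.78, 5.96 and 6.64 (-1.13 ± 0.30, SE, limma adjusted p = 0.144). SLCO2B1, an uptake carrier for sulfated steroids, read 6.09, 4.22 and 5.50 against 3.12, 3.88 and 2.43, a difference of -2.13 ± 0.53 (SE) that did not pass. SLCO2B1 was dim by its mean (4.21) and in 4 of the 6 arrays.

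Of 12 genes that cleave or process conjugates none passed. ACY1, an aminoacylase that deacetylates mercapturates, the end products of glutathione conjugation, read 7.27, 6.14 and 6.73 with control siRNA and 2.73, 4.09 and 5.40 with SLU7 siRNA. The SLU7 arrays were widely spread and all below the controls, and the difference of -2.64 ± 0.62 (SE) had a limma adjusted p of 0.107. STS, steroid sulfatase, differed by -0.50 and was dim.

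Of 15 other conjugating enzymes and GST relatives 1 passed. NNMT, which methylates nicotinamide, read 12.34, 12.25 and 12.40 with control siRNA and 10.01, 10.57 and 10.81 with SLU7 siRNA. It fell 3.65-fold, by 1.87 ± 0.28 (SE) log2 units (limma adjusted p = 0.0472), with -2.24 in the split-off pair and -1.68 in the remaining 4 arrays. The zeta-class GSTZ1, a maleylacetoacetate isomerase of tyrosine breakdown, read 7.19, 7.24 and 7.13 against 6.49, 6.59 and 6.77 (-0.57 ± 0.23, SE, limma adjusted p = 0.35). ACSM3, an acyl-CoA ligase, differed by 1.29 and was dim. SLC7A11, ABCC2 and NNMT did not pass without any 1 of the 6 arrays, when no cluster of the table passed, nor in the remaining 4 arrays alone.

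**Figure D4:**
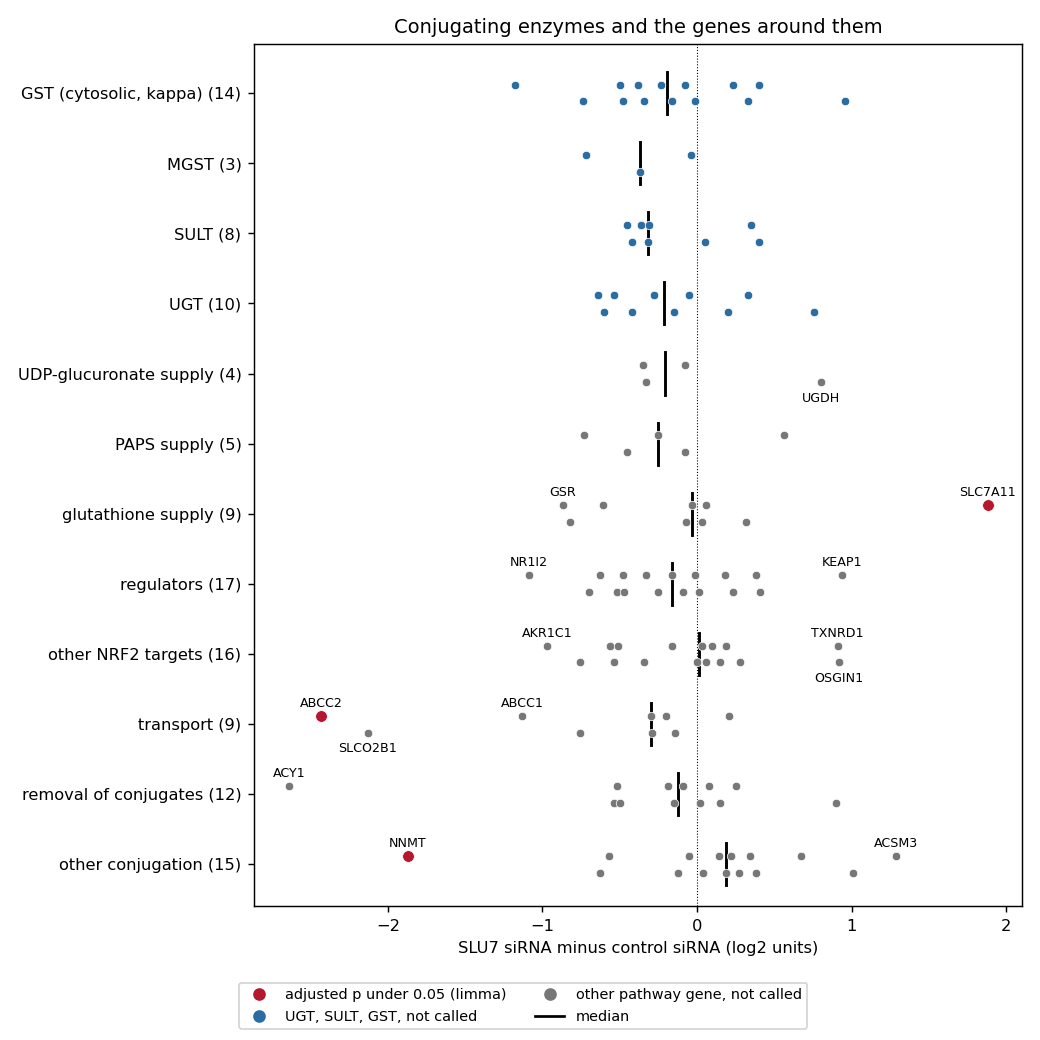
SLU7 siRNA minus control siRNA difference (log2 units, horizontal) of each gene of the 4 enzyme families and of the 8 lists around them, with the number measured in brackets and a bar at each median. Red marks the 3 genes past the limma threshold, SLC7A11 above 0 and ABCC2 and NNMT below, and none of them is a UGT, SULT, GST or MGST gene.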

How the data were processed

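The authors deposited log2 expression values of Affymetrix Human Exon 1.0 ST arrays, with the core chip definition of aroma.affymetrix per the labels and RMA (background correction, normalization and probe summary) per the submitters' processing notes. The genome build, and the annotation behind the clusters, is not given in the sources used here. Summarising a gene's probe sets into 1 value means that changed exon use can appear as a changed level.

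Symbols came from GEO's platform annotation: 16287 clusters had 1, 674 several and 1747 none. UGT8 was counted with the families although nothing follows its number. Groups were compared with limma 3.58.1 (R 4.3.3, lmFit, eBayes without trend, group as the only term, no filter). The fit was also run on simulated data with independent noise, no array split and changes larger than that of any member. That run does not measure power or false calls in these data. Pairs of arrays shared at most 9 exact values, so none was a copy. Alternatives are in the closing section.

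Named were SLU7, the members with groups that do not overlap, and in each family the 3 highest in signal and the 3 largest differences, plus GSTM1, GSTM3, GSTA4, GSTT1 and GSTTP1, taken after their values were seen to complete their classes and not among the alternatives of single genes. Lists named their called genes, up to 3 with separate groups, and fixed regulators. The members and lists were chosen with earlier results of these data known. Promoter sequences are RefSeq's.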

Additional observations from a re-analysis of the deposited data

Results flagged for a closer look

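Of the 8 clusters that list several genes of these families and so are not counted as members, 2 that are not dim lay higher in every SLU7 array than in every control array. Both list several sulfotransferase genes. Cluster 3655482 read 7.71, 7.34 and 7.41 log2 units with control siRNA and 8.19, 7.90 and 7.89 with SLU7 siRNA, a difference of 0.51 ± 0.25 (SE, limma adjusted p = 0.453). Cluster 3656066 read 7.47, 7.12 and 7.33 against 7.68, 7.89 and 7.89, also a difference of 0.51, ± 0.24 (limma adjusted p = 0.426). They carry the same symbols and may share probes, so they are not separate evidence. Clusters 2772331 (a difference of 0.41) and 3939665 (0.69), both dim, were also higher in every SLU7 array. Over all clusters, dim ones included, 9.64% were higher without overlap.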

How the results depend on the processing

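No conjugating enzyme passed limma under any alternative run. Planned runs were a replicate block, no dim clusters, quantile normalization, median centring, robust shrinkage with a trend and weighted arrays. Also planned were leaving out each array and the stricter threshold of 0.01. The array-split block and the other 4 arrays alone were added after seeing the data. In the main run 1 member, GSTO2, had an unadjusted limma p under 0.05. Other members had one under some alternatives, among them GSTO1 with trend (0.00819), MGST3 with the array-split block (0.0192) and UGT2B10 in the other 4 arrays (0.0102). The share of all clusters with such a p was not computed for the alternatives. Replicate numbers did not pair the arrays (correlations of deviations -0.381, -0.314 and 0.141), and with the replicate block no cluster passed. The glutathione, transport and other conjugation lists then went from 1 call to 0, as they did in the other 4 arrays and without any 1 array. The members' median difference ran from -0.31 to -0.06 without 1 array and was -0.10 within the split-off pair. Members without overlap numbered 6 to 10 without 1 array and 11 in the other 4, where fewer arrays separate more easily. The share over all clusters was not computed with fewer arrays, so these counts cannot be set beside the 18.9% of all 6 arrays. Other NRF2 targets had 2 calls with trend and 1 with array weights or the array-split block. Removal of conjugates had 1 with each of these and regulators had 1 with the array-split block. Transport had 2 with array weights and other conjugation 2 with the array-split block. Clusters passing rose too, from 81 of 18708 in the main run to 441 with trend, 575 with array weights and 783 with the array-split block. SLU7 passed without dim clusters (-1.51), with trend (-1.51), array weights (-1.61) and the block (-1.51), and ran from -1.69 to -1.25 without 1 array. UGT2B17 was 0.17 in the other 4 arrays. Signs turned without 1 array in GSTK1 (-0.43 to 0.27), MGST1 (-0.80 to 0.04), MGST2 (-0.67 to 0.51), SULT2B1 (-0.18 to 0.26), UGT2B10 (-1.41 to 0.08), UGT3A1 (-0.11 to 0.67) and NR1I3 (-0.50 to 0.29). The cause of these changes was not tested. Averaging clusters of a gene could change no named gene, since each had 1.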
